A study of Mus musculus with 14 samples.

Results

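The genes described here are the CD8 co-receptor pair Cd8a and Cd8b1 and 8 genes of cytotoxic effector lymphocytes, namely Gzma, Gzmb, Gzmk, Prf1, Nkg7, Ccl5, Eomes and Cst7. They are 10 of the 36870 named genes on the array, and 13 of its 56605 probes carry their names. The set was selected on measured values, since it was chosen for its difference between Roquin san/+ and wild-type arrays. The genotype differences of the 10 genes are therefore given as a description with no test.

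RNA came from CD4+ T-cells of mice heterozygous for the san allele of Roquin (Roquin san/+, n = 7 arrays, replicates A to G) and of wild-type mice (n = 7 arrays, replicates A to G). The series presents the sanroque strain as a model of follicular helper T-cell lymphoma. The labels give no age, sex, treatment or tumor status for either genotype, and do not state that each array is a separate animal, so all p-values measure the spread between these samples. Each sample was hybridised to a one-colour array, which gives 1 fluorescence intensity for each probe.

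CD8 alpha and CD8 beta form the co-receptor of cytotoxic T cells, which recognise peptides on MHC class I. CD4+ T cells normally silence both genes. Cytotoxic T cells and natural killer (NK) cells kill through granules that hold perforin, a pore-forming protein, and granzymes, proteases that enter the target cell. The transcription factor Eomes, with its relative T-bet, drives much of this programme, and a minority of CD4+ T cells can also acquire it.

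Levels are log2 intensities relative to the 75th percentile of the same array, so that a level of 0 is the intensity at that percentile and a difference of 1 is a 2-fold change. Levels of different probes are not set against each other. On Roquin san/+ G and wild-type E the image had been read 2 grid rows away from the probe names. The intensities of those 2 arrays correlated with the spot-by-spot median of all 14 arrays at 0.015 and 0.016 as deposited. After they were moved back by 2 rows, the correlations were 0.909 and 0.889. Prf1 has no value on either of them (n = 6 per genotype), and their dimmest spots sit at a floor that the move does not correct. Roquin san/+ C was a dim array, with a 75th percentile of intensity of 107 against 419 to 636 on the other well-placed Roquin san/+ arrays and 466 to 996 on the well-placed wild-type arrays. The arrays lay on 2 slides: slide 1 held 5 Roquin san/+ and 2 wild-type arrays, and slide 2 held 2 Roquin san/+ and 5 wild-type arrays.

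The probes behind the CD8 genes and Gzmk are shown because Gzmk had the largest difference of the set and Cd8b1 the smallest once Roquin san/+ F was left out, and because Cd8a and Gzmk were measured by 2 probes each. The first 30 of the 60 bases of each probe follow, in lower case throughout, with the mm9 position of the whole probe as the files give it.
Cd8a, first probe, chr6:71328911-71328970, plus strand: cctgaaggaactaagagtcacccatggtcc
Cd8a, second probe, chr6:71323885-71323944, plus strand: tctcaccctgaacaagttcagcaaggaaaa
Cd8b1, chr6:71286937-71286996, plus strand: gaactcccacaccaccatgtactcttcttg
Gzmk, first probe, chr13:113961816-113961875, minus strand: cgttcatcctaaataaaatgtggacgtctg
Gzmk, second probe, chr13:113962100-113962159, minus strand: cctggaatctatacgctattaactaagaaa
The first probe of each pair had the higher mean level and stands for the gene below.

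The purity of the T-cell RNA bears on genes that CD4+ T cells should lack, so marker lists for other cell types were summed on each array. CD4 T-cell markers were present throughout. Cd4 itself lay between 1.45 and 2.37 on 6 Roquin san/+ arrays and at 0.22 on Roquin san/+ F, and Cd3e lay between 2.36 and 3.99 on all 14. Roquin san/+ F stood apart. Its 2 CD8 T-cell markers summed to 7.13 times the 75th percentile, 10.1 times the highest sum on any other array. These 2 markers are Cd8a and Cd8b1, which belong to the 10 genes, so their sum is no separate measure of purity. Its 9 B-cell markers summed to 72.6 against 0.766 to 18.7 on the other arrays, and its 9 myeloid markers to 261 against 4.87 to 96.4. The 6 erythroid markers reached 290 on F, 2.50 times the next array, and the 3 platelet markers 2.26, 7.43 times the next. The 12 NK-cell markers summed to 22.1 on F, 1.05 times the sum on Roquin san/+ C, and 10 of the 12 were highest on F of all 14 arrays. Most of the sum on the dim array C came from Cd244, at a level of 4.29 against at most 1.65 on wild-type arrays. The plasma-cell sum on F was 0.353 of the highest sum elsewhere, and the sum of NKT or gamma-delta T-cell markers 0.762 of it. Ncr1, an NK-cell receptor, stood at -1.86 on F and between -8.23 and -3.88 elsewhere. The CD4 T-cell list gave its lowest sum on F, 26.9, while the remaining Roquin san/+ arrays gave 28.9 to 86.0 and the wild-type arrays 38.6 to 82.1. In bulk RNA, more cells of a type and more RNA per cell cannot be told apart. The part of these other cell types in the levels of the 10 genes was not tested, and values are therefore given with and without F.

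**Figure D1:**
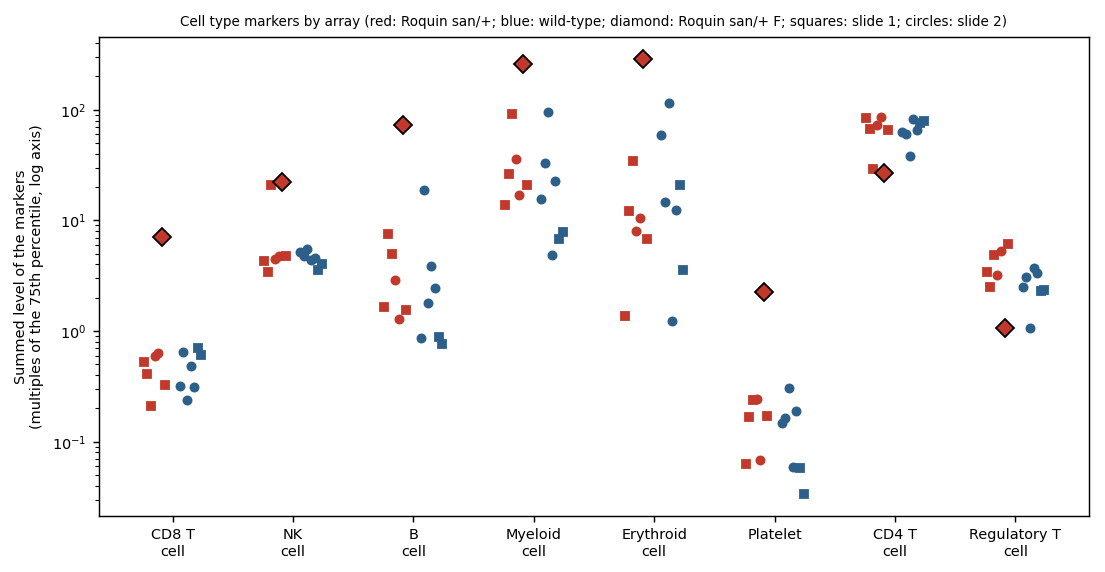
Summed level of cell type markers on each of the 14 arrays, in multiples of the array's 75th percentile on a log axis; red points are Roquin san/+ arrays, blue points wild-type arrays, squares slide 1, circles slide 2, and the diamond is Roquin san/+ F. F is the highest array for CD8 T-cell, NK-cell, B-cell, myeloid, erythroid and platelet markers, and the lowest for CD4 T-cell and regulatory T-cell markers.

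Cd8a, the alpha chain that anchors the co-receptor, was near background on most arrays. It was well above background on 3 of 6 well-placed Roquin san/+ arrays (B, D and F) and on 2 of 6 well-placed wild-type arrays (B and C). Its level ran from -7.57 to 0.26 with a median of -5.72 on Roquin san/+ arrays, and from -9.04 to -3.84 with a median of -7.41 on wild-type arrays. Array F alone reached the 75th percentile. The next Roquin san/+ array above background was B at -5.72, the highest other value, -4.32, is the floor of displaced array G, and the other 6 Roquin san/+ arrays lay within the wild-type range. The mean was -4.94 ± 2.50 (SD, n = 7) in Roquin san/+ and -6.67 ± 2.02 (SD, n = 7) in wild-type, a difference of 1.73. Without F the difference was 0.86. The second probe gave 0.91, and 0.11 without F. Because the values of most arrays are not measured above background, these differences have no firm size.

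Cd8b1, the beta chain, was well above background on all 12 well-placed arrays. Its level ran from -2.44 to 2.57 with a median of -0.95 on Roquin san/+ arrays, and from -2.13 to -0.51 with a median of -1.07 on wild-type arrays. Array F was again the one high value, 9.48 times the next Roquin san/+ array, and the other Roquin san/+ arrays overlapped the wild-type arrays. The difference of 0.48 (standard error 0.60) became -0.076 without F, so that no higher mean was left in Roquin san/+. Among the other 6 Roquin san/+ arrays the summed CD8 markers had a median of 0.469, against 0.481 over the 7 wild-type arrays.

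Gzma, the granzyme with trypsin-like activity, followed the same array. It ran from -2.44 to 3.97 with a median of -1.32 on Roquin san/+ arrays, and from -3.14 to 0.56 with a median of -2.09 on wild-type arrays. F exceeded the next Roquin san/+ array 12.4-fold, while none of the other 6 exceeded the highest wild-type array. The difference was 1.33 (standard error 0.87), and 0.59 without F.

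Gzmk, a granzyme typical of early effector and memory lymphocytes, had the largest difference of the set, and F was not its highest array. It ran from -1.97 to 1.21 with a median of -0.46 on Roquin san/+ arrays, and from -4.98 to -0.31 with a median of -2.36 on wild-type arrays. All 7 Roquin san/+ arrays were above the wild-type median, and 3 of them (B, F and G) were above every wild-type array. The mean was -0.44 ± 1.35 (SD, n = 7) against -2.87 ± 1.80 (SD, n = 7), a difference of 2.44 (standard error 0.77), or 5.41-fold. It was 2.29 without F, and F had rank 3 of the 7. The second probe gave 2.36.

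Gzmb, the granzyme that activates caspases, ran from -3.67 to -1.29 with a median of -2.68 on Roquin san/+ arrays, and from -4.00 to -2.95 with a median of -3.53 on wild-type arrays. In 5 of 7 Roquin san/+ arrays it exceeded the highest wild-type array. The wild-type value of -4.00 is the floor of displaced array E. The difference was 0.89 (standard error 0.33), and 0.69 without F.

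Prf1, which encodes perforin, differed least among the granule genes. It ran from -2.45 to -1.04 with a median of -1.90 on 6 Roquin san/+ arrays, and from -3.04 to -1.96 with a median of -2.21 on 6 wild-type arrays. The difference of 0.46 (standard error 0.26) was 0.30 without F, and 3 of the 6 Roquin san/+ arrays exceeded every wild-type array.

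Nkg7, a granule membrane protein of cytotoxic cells, separated the genotypes in all but 1 array. It ran from 0.31 to 2.64 with a median of 1.12 on Roquin san/+ arrays, and from 0.14 to 0.60 with a median of 0.48 on wild-type arrays. The dim array C was the Roquin san/+ array inside the wild-type range, and the other 6 were above all wild-type arrays. The spread was also wider in Roquin san/+, with an SD of 0.79 against 0.17. The difference was 0.95 (standard error 0.29), and 0.73 without F.

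Cst7, or cystatin F, an inhibitor of the proteases that mature granzymes, was the gene in which F was not high. It ran from -0.17 to 1.31 with a median of 0.19 on Roquin san/+ arrays, and from -1.02 to 0.13 with a median of -0.64 on wild-type arrays. Displaced array G held the highest value and F lay at -0.11, rank 6 of the 7. The difference was 0.81 (standard error 0.26), 0.87 without F and 0.66 without both displaced arrays.

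Ccl5, the chemokine RANTES, which effector lymphocytes store and release, ran from 0.91 to 5.47 with a median of 3.76 on Roquin san/+ arrays, and from 1.42 to 3.57 with a median of 2.47 on wild-type arrays. In 4 Roquin san/+ arrays (A, B, F and G) it exceeded every wild-type array, but the dim array C held the lowest value of all 14. The difference was 1.14 (standard error 0.58), and 0.83 without F.

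Eomes, the T-box transcription factor of the programme, ran from -2.26 to -0.04 with a median of -1.37 on Roquin san/+ arrays, and from -3.01 to -1.36 with a median of -2.35 on wild-type arrays. All 7 Roquin san/+ arrays were above the wild-type median and 3 were above every wild-type array. The difference was 1.01 (standard error 0.33), or 2.01-fold, and 0.80 without F. A second Eomes probe lay near background, with means of -6.29 and -6.98.

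**Figure D2:**
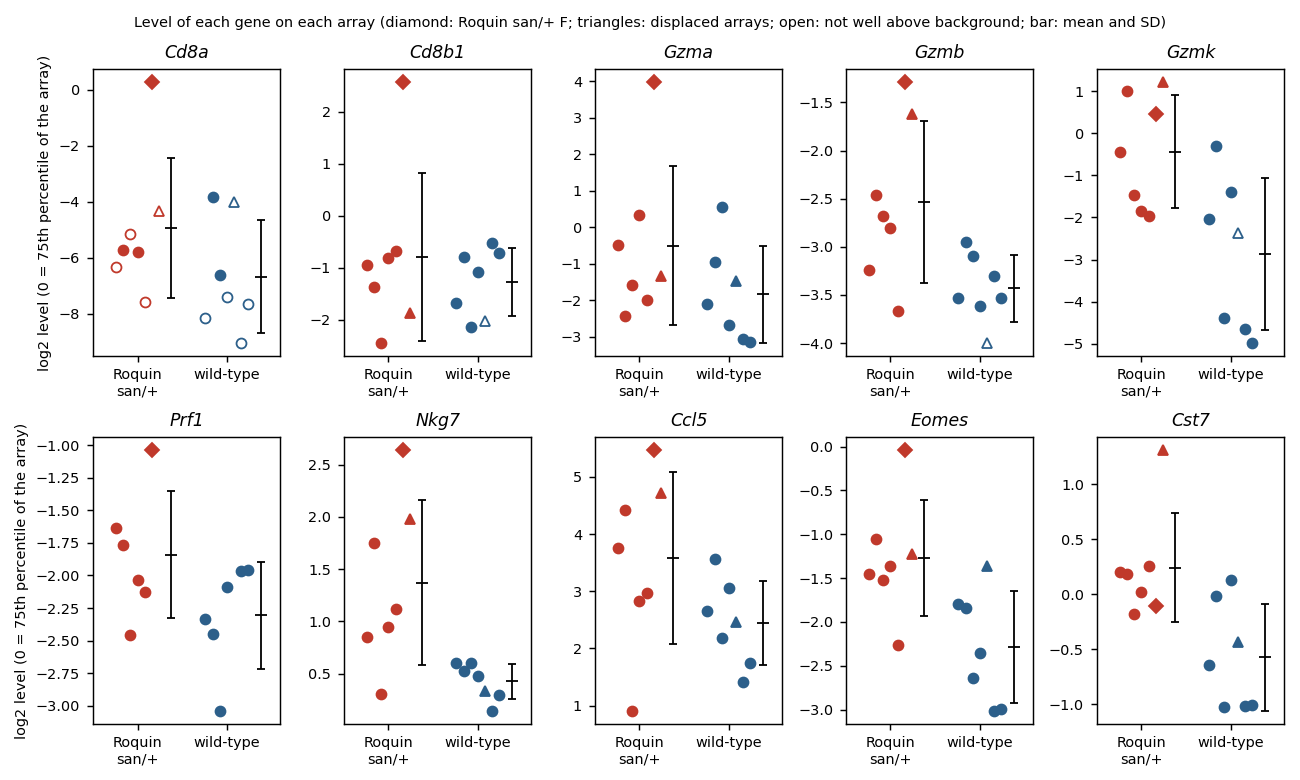
Log2 level of each of the 10 genes on each array (0 is the array's 75th percentile), Roquin san/+ in red and wild-type in blue, with the mean and SD as a bar; the diamond is Roquin san/+ F, triangles are the 2 displaced arrays, and open symbols are not well above background. F is the highest Roquin san/+ array in 8 of the 10 genes, by the widest margin in Cd8a, Cd8b1 and Gzma, and no gene separates the genotypes completely.

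Across the set, all 10 genes had the higher mean in Roquin san/+, with differences of 0.46 to 2.44 and a median of 0.98. Over all 29046 probes tested the median was 0.02, and 52.4% were higher in Roquin san/+. A difference of at least 1 was found for 5 of the 10 genes (Cd8a, Gzma, Gzmk, Ccl5 and Eomes), against 2.44% of all tested probes, in the contrast that chose the genes. Without F, 9 of 10 were higher, the median was 0.77, and Gzmk was the 1 gene with a difference of at least 1, against 2.02% of tested probes. In none of the 10 genes did every Roquin san/+ array exceed every wild-type array, with or without F. The shares of all tested probes that did were 0.0379% and 0.0619%. Roquin san/+ F was the highest array of its genotype in 8 of the 10 genes, and in 12.5% of all tested probes.

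In the fit across all probes with limma, 0 of 29046 probes passed an adjusted p of 0.05 (0% of those tested), with 1059 (3.65%) at an unadjusted p under 0.05 and a lowest adjusted p of 0.861. Of the 10 genes 9 were in this fit and 0 were called. Each of the 9 was well above background on all 12 well-placed arrays, so none entered through 1 genotype alone. Cd8a did not pass the filter on dim probes.

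The differences were not alike on the 2 slides. On slide 1 the median difference of the 10 genes was 1.62, and 1.52 without F. On slide 2 it was 0.30. The medians of all tested probes on the slides were 0.13 and -0.08. Gzmk differed by 4.96 on slide 1, where the 5 Roquin san/+ arrays lay between -1.46 and 1.21 and the 2 wild-type arrays at -4.98 and -4.64. On slide 2 it differed by 0.19, with 2 Roquin san/+ arrays at -1.97 and -1.84 inside the wild-type range of -4.38 to -0.31. Eomes differed by 1.94 and 0.18, Ccl5 by 2.27 and 0.11, Gzmb by 1.16 and 0.21, and Gzma by 2.73 and 0.49. Nkg7 (1.29 and 0.53), Cst7 (1.29 and 0.53) and Prf1 (0.24 and 0.40) differed less between the slides. Cd8a differed by 4.09 on slide 1 and by -0.67 on slide 2, and Cd8b1 was lower on slide 1 (-0.19). These slide 1 values of single genes include F. Without F, slide 1 gave 4.89 for Gzmk, 1.69 for Eomes, 1.87 for Ccl5, 0.91 for Gzmb and 1.65 for Gzma. It gave 2.96 for Cd8a, 0.011 for Prf1 and -1.04 for Cd8b1, while Cst7 was larger without F, at 1.39. On slide 1 without F, 9 of the 10 genes were higher in Roquin san/+.

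The 2 wild-type arrays of slide 1, F and G, were the lowest of the wild-type arrays for 5 of the 10 genes (Gzma, Gzmk, Nkg7, Ccl5 and Eomes). The same held for 11.6% of all tested probes. On these 2 arrays the B-cell markers summed to 0.881 and 0.766 and the myeloid markers to 6.79 and 7.84, where wild-type D had the lowest myeloid sum, 4.87. The 4 Roquin san/+ arrays of slide 1 other than F gave 1.54 to 7.53 and 13.8 to 92.2. Plasma-cell sums (9.43 and 7.09) and platelet sums (0.0581 and 0.0338) on wild-type F and G were the lowest of the wild-type arrays. The same 4 Roquin san/+ arrays gave 11.5 to 40.0 and 0.0624 to 0.241. NK-cell sums on wild-type F and G, 3.56 and 4.06, were also the lowest of the wild-type arrays. The same 4 arrays gave 3.40 to 21.0. The values of 21.0 and 92.2 are those of the dim array C. There Cd244 (level 4.29) made up most of the NK-cell sum and Itgam (6.20) most of the myeloid sum. CD8 T-cell and erythroid sums did not follow this. They were 0.703 and 0.612 within a wild-type range of 0.238 to 0.703, and 20.9 and 3.55. On slide 1 without F, the median difference of the tested B-cell markers was 1.65 and of the myeloid markers 1.48, against 1.52 for the 10 genes. On slide 2 these were -0.78 and -0.11, against 0.30. For the tested NK-cell and plasma-cell markers and the 1 tested platelet marker, slide 1 without F gave 0.95, 1.40 and 1.32. On slide 2 they gave -0.14, -0.28 and 0.15. The CD4 T-cell markers went the other way, at -0.45 and 0.30. The part of these cell types in the slide 1 differences was not tested. With the slide as a term in the fit, the differences were 2.58 for Gzmk, 1.06 for Eomes, 1.19 for Ccl5, 0.91 for Nkg7 and 0.30 for Cd8b1. Slide and genotype overlap in part, and each slide had a scan of its own.

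**Figure D3:**
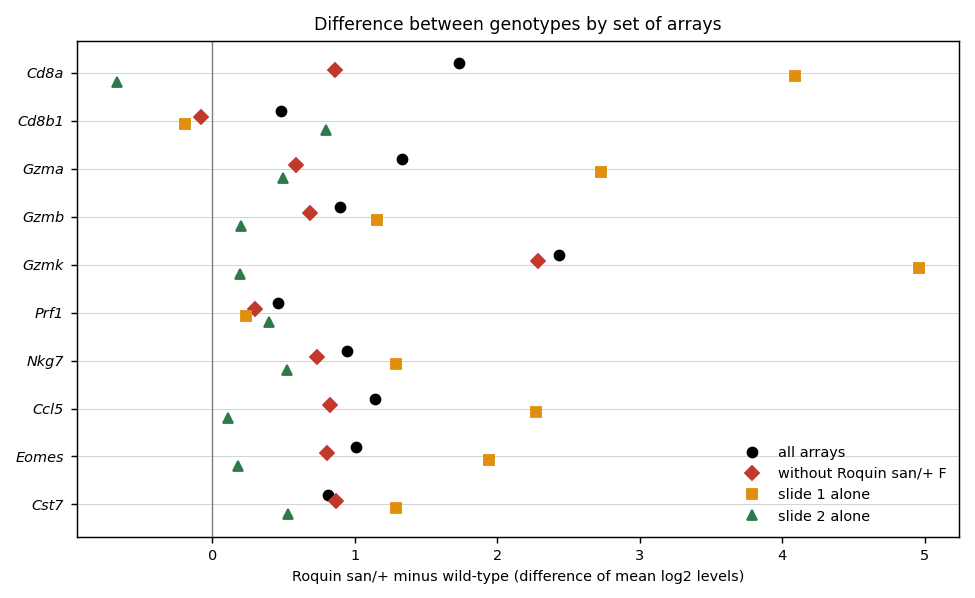
Difference of mean log2 levels, Roquin san/+ minus wild-type, for each of the 10 genes over all arrays (black circles), without Roquin san/+ F (red diamonds), on slide 1 alone (5 against 2 arrays, orange squares) and on slide 2 alone (2 against 5 arrays, green triangles). Without F the differences are 2.29 for Gzmk, 0.80 for Eomes and 0.83 for Ccl5, each is larger on slide 1 than on slide 2, and Cd8b1 moves to -0.076 without F.

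How the genes vary together within a genotype was examined by subtracting each genotype's mean. This removes the difference of means, but not all of the choice of genes. A high value on Roquin san/+ F raises the Roquin san/+ mean that the choice used, and it stays in the deviations. F was the highest array of its genotype in most of the genes. The relations are therefore not independent of the choice, and their permutation p-values do not account for it. Of 9 relations with Cd8a, the one with Eomes passed the adjustment over the 9. Over 14 arrays its Pearson r was 0.83 (permutation p = 0.00165, adjusted 0.0148) and its Spearman rho was 0.65 (permutation p = 0.0208, adjusted 0.0955). Without the 2 arrays farthest from the median of Cd8a, Roquin san/+ F and wild-type B, r was 0.71. Without F alone r was 0.72 and the adjusted permutation p was 0.148, so the call was lost. Cd8a was at or near background on most of these arrays, and the floor set its value on both displaced arrays. Over the 12 well-placed arrays r was 0.80 (permutation p = 0.00797, adjusted 0.0359) and rho was 0.52 (permutation p = 0.103, adjusted 0.309). Leaving out F and wild-type B from these 12 gave an r of 0.43. The genotype differences of both genes were unlike on the 2 slides (Eomes 1.94 and 0.18, Cd8a 4.09 and -0.67). The shuffles were within genotype and not within slide. The permutation p-values of all relations with Cd8a therefore do not account for the slide.

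Cd8b1 did not follow Cd8a outside F. Its r with Cd8a was 0.45 over 14 arrays (permutation p = 0.166, adjusted 0.213) and rho was -0.16 (permutation p = 0.598, adjusted 0.673). Without F and wild-type B, r was -0.70. For Gzma, r was 0.74 (permutation p = 0.0160, adjusted 0.0546) and rho was 0.63 (permutation p = 0.0232, adjusted 0.0955), and r was 0.36 without the same 2 arrays. The adjusted p of the other 6 relations lay between 0.0546 and 0.569 for Pearson's r, so that none of them passed.

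The 10 genes outside the set whose deviations were closest to the mean deviation of the 10 had r of 0.931 to 0.950 over the 14 arrays, among 19143 genes ranked. Those with a gene name were Il10ra, Gm30908, Myo1f, Mif4gd, Il13ra1, Plek, Irak3, Rhoq and Rhbdf1. Il10ra encodes the ligand-binding chain of the interleukin-10 receptor. Without F their r lay between 0.826 and 0.930, with the highest for Il13ra1. The 5 genes closest to Cd8a were Grk5, Sfxn5, Rhbdf1, Unc93b1 and Gpat3, at r of 0.934 to 0.953. F was the highest of all 14 arrays for each of these genes, and the 14 arrays share their slides. Floor values enter this ranking too. Cd8a was at the floor on both displaced arrays and near background on most others. The highest value of Gpat3 and of Gm30908 on the other Roquin san/+ arrays was -4.32, the floor of array G.

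Other genes of the killing machinery were tested as a list of 22, of which 17 passed the filter on dim probes. Of these, 14 were higher and 3 lower in Roquin san/+, with a median of 0.33, and 0 passed the adjusted test. The largest differences were 0.88 ± 0.45 (SE) for Gzmm, a granzyme of innate lymphocytes, 0.57 ± 0.35 for Slamf7, a surface receptor of cytotoxic and plasma cells, and 0.51 ± 0.35 for Stx11, a syntaxin of granule release. Gzmm was 0.41 without F. Gzmm, Slamf7 and Stx11 differed by 1.28, 1.23 and 1.83 on slide 1 and by 0.18, -0.15 and -0.37 on slide 2. Ifng, the effector cytokine interferon gamma, differed by 0.41 ± 0.35 and by 0.40 without F. Gzmd, Gzme, Gzmf, Gzmg and Gzmn did not pass the filter on dim probes.

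The transcription factors of the CD8 lineage and of effector cells were all measured, 14 of 14. Here 9 were higher and 5 lower, the median was 0.11 and 0 passed the adjusted test. Runx3, which represses Cd4 in CD8 T cells, differed by 0.36 ± 0.16 (SE), and Zbtb7b, or ThPOK, which fixes CD4 fate, by -0.11 ± 0.25. On F, Zbtb7b had its lowest level, -1.94 against -1.59 to -0.43 on the other 13 arrays. Tbx21, which encodes T-bet, differed by 0.25 ± 0.30 and by 0.07 without F. The largest differences of the list were 0.95 ± 0.40 for Bhlhe40, a regulator of cytokine production, 0.60 ± 0.28 for Prdm1, which encodes Blimp-1, and 0.53 ± 0.62 for Zeb2, a partner of T-bet in terminal effector cells. Without F these were 0.88, 0.63 and 0.15. On slide 1 they were 2.10, 1.09 and 1.85, and on slide 2 they were -0.16, 0.16 and -0.44.

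Effector chemokines and receptors had the largest median difference of the 3 gene lists. Of 18 genes 16 were tested, 14 were higher and 2 lower, and the median was 0.59, or 0.42 without F. Some marker lists had larger medians: 0.97 for myeloid, 0.81 for B-cell and 0.66 for NK-cell markers, or 0.43, 0.09 and 0.20 without F. The 1 tested platelet marker gave 0.86, and every other marker list was below 0.59. An unadjusted limma p under 0.05 was found for 8 of the 16, and 0 passed the adjusted test. The same p was found for 1 of the 17 killing genes, 3 of the 14 transcription factors and 3.65% of all tested probes. The lists were chosen with earlier results of these data known. Array F was the highest Roquin san/+ array in 10 of the 16, so the genes are not independent. These shares are therefore no test of the list. Ccl4 differed by 1.81 ± 0.73 (SE) and Ccl3 by 1.71 ± 0.76, a pair of inflammatory chemokines, and S1pr5, a receptor for exit from tissue, by 1.71 ± 0.72. Without F the values were 1.51, 1.32 and 1.13. On slide 1 Ccl4, Ccl3 and S1pr5 differed by 4.61, 4.57 and 3.07, and on slide 2 by -0.54, -0.89 and 0.43. S1pr5 was not well above background on either displaced array. Its highest wild-type value, -4.00, is the floor of displaced wild-type E. The medians of the list were 1.01 and 0.15 on the 2 slides.

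The sequence before the start of these genes was searched for motifs of factors known to act in cytotoxic cells. RefSeq promoters (GRCm38.p6) were matched for 8 of the 10 genes. In the 250 bases before the start, on both strands, the T-box motif TCACAC was present in 3 of 8 (Gzmb, Gzmk and Nkg7) and in 12.3% of 32851 promoters. The RUNX motif TGTGGT was present in 5 of 8 (Cst7, Gzma, Gzmb, Nkg7 and Prf1) and in 14% of promoters. The AP-1 motif TGANTCA was present in Gzmb and in 6.75% of promoters. A match of letters is a description and not a binding site. The 3 promoters with a T-box match are shown, since Eomes and T-bet are T-box factors. The capitals mark T-box and RUNX matches on either strand, which do not overlap.
Gzmb, chr14:56262335-56262584, minus strand: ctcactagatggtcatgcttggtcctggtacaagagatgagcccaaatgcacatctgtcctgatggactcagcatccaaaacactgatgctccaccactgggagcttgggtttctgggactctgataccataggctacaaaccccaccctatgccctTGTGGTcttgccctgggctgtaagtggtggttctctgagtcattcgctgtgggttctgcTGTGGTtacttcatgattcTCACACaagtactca
Gzmk, chr13:113180966-113181215, minus strand: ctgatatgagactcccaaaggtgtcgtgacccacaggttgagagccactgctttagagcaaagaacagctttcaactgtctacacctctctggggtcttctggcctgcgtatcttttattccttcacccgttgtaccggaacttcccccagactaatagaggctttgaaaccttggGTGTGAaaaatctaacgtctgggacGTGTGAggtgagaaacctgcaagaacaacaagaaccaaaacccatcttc
Nkg7, chr7:43436888-43437137, plus strand: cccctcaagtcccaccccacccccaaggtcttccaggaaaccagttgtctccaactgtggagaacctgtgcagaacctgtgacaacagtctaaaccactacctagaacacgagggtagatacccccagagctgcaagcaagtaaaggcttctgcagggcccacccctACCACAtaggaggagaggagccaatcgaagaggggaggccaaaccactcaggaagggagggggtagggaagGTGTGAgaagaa
Gzmk holds 2 T-box matches, starting 74 and 49 bases before the start. Gzmb holds 1 T-box match 15 bases before the start and 2 RUNX matches at 93 and 34 bases. Nkg7 holds 1 of each, at 12 and 83 bases. Cd8a and Eomes hold none of the motifs searched in this window.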

How the data were processed

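The authors deposited the output of Agilent Feature Extraction (10.5.1.1, per the labels) for 14 arrays as spot intensity, with the processed signal already background-subtracted, and a table of log2 values whose method is not given in the sources used here. Control spots and outlier flags were left out and the spots of a probe averaged as log2 processed intensity. The 75th percentile over 24285 probes well above background on all 12 well-placed arrays was subtracted. Arrays G of Roquin san/+ and E of wild-type were moved by 2 grid rows, the best of 81 shifts tried. Probes well above background on all 6 well-placed arrays of at least 1 genotype entered the test, for which limma 3.58.1 was run in R 4.3.3 (Benjamini-Hochberg, threshold 0.05). This filter looks at the genotype: 802 probes passed through Roquin san/+ alone and 3959 through wild-type alone. A gene is represented by its probe with the highest mean. The genes, lists and markers were chosen with earlier results of these data known. Named were all 10 genes, the 3 largest differences of each gene list with Tbx21, Runx3, Zbtb7b and Ifng, the nearest genes by r, and stated markers. Permutation p-values used 100000 shuffles within genotype but not within slide, two-sided. The number of arrays limits the precision. The fit and the move were tested on simulated data. Alternatives covered background correction, scaling, filter, slide, replicate letter, the authors' log2 values, deposited probe names, the probe of a gene and each array left out. Leaving out F with both displaced arrays, or with the slide in the fit, was chosen after seeing the data. Sequences and names are from RefSeq and the array files.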

Additional observations from a re-analysis of the deposited data

Results flagged for a closer look

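Of 20 groups of arrays (10 genes in 2 genotypes), 3 held an array whose gap to its nearest neighbour was too wide for the group's range. Chance flags about 1 in 20 groups that are independent and not chosen on their values. The 10 genes were chosen on these values and their groups share arrays. That rate therefore does not apply here, and the 3 flags are a description. Cd8a stood at 0.26 on Roquin san/+ F, with the other 6 arrays between -7.57 and -4.32. Of those 6 only B and D were well above background, and -4.32 is the floor of displaced array G, so the gap has no measured size. Cd8b1 stood at 2.57 on the same array, with the others between -2.44 and -0.68. Cst7 stood at 1.31 on Roquin san/+ G, a displaced array, with the others between -0.17 and 0.26.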

How the results depend on the processing

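No probe passed the adjusted limma test in any of 29 settings, with 70 to 2470 probes at an unadjusted p under 0.05. The median difference of the 10 genes stayed above 0 throughout, at 0.77 to 1.13 when 1 array was left out in turn, 0.98 with normexp, 1.08 with quantile normalization, 0.89 without both displaced arrays, 0.71 under the deposited probe names and 0.61 without F and both displaced arrays. The genes were chosen for this difference on the same arrays, so a median above 0 is a description and no test. Arrays of 1 letter were not paired (correlations of deviations from -0.33 to 0.43). With them as a replicate block the median was 0.98 and 925 probes had an unadjusted p under 0.05. Leaving out 1 array in turn, Cd8b1 ran from -0.076 (without F) to 0.76. It also turned to -0.097 without F and both displaced arrays, -0.089 with the slide in the fit and F left out, and -0.19 on slide 1. Cd8a turned to -0.67 on slide 2. Of the 280 differences of single genes under an alternative, 269 kept their direction and stayed within the spread between arrays, the pooled SD of single arrays. A further 6 kept their direction but moved beyond it, all of them on 1 slide alone. Leaving out 1 array cannot move a difference beyond that SD, so for those settings staying within it was fixed in advance. The count is therefore no test of stability. The number of relations with Cd8a that passed was 1 over 14 arrays, 2 without both displaced arrays (Eomes and Gzmb), 0 without F (lowest unadjusted permutation p 0.0165) and 0 with normexp (lowest unadjusted permutation p 0.00796). The median of all probes moved to 0.16 with normexp, -0.10 with the percentile over all probes and 0.34 with no filter. Signal over background limits Cd8a and the second Eomes probe most, since most arrays do not measure them.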
